A study of Drosophila melanogaster with 42 samples.

Results

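The Enhancer of split complex is a row of small genes on chromosome arm 3R, and 10 of its genes were followed here through the DamID peaks of 7 chromatin proteins in Drosophila intestinal stem cells (ISCs). The 10 genes were chosen by name, out of 17684 RefSeq genes on 6 chromosome arms, and all 10 were found in the release 6 annotation. Of these, 7 encode basic helix-loop-helix (HLH) proteins and 3 encode Bearded family members (BFM). For each gene, the base pairs and peaks in its body were counted in each of the 7 peak lists. The same was done for the span from the first base of E(spl)mdelta-HLH to the last base of E(spl)m8-HLH, with 20 kb on each side.

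Notch is a receptor that, once bound by a ligand such as Delta on a neighbouring cell, is cut to release a fragment that joins the DNA-binding protein Su(H) and activates target genes. Genes of the Enhancer of split complex are the best known of these targets. Their HLH proteins are transcriptional repressors that recruit the co-repressor Groucho, and their Bearded family members are small proteins that antagonize Neuralized, a ubiquitin ligase needed for Delta to signal. In the fly midgut, Delta on ISCs activates Notch in sister enteroblasts (EBs), and reporters of E(spl)mbeta-HLH are used to mark Notch activity in these EBs.

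DamID reads binding from methylation: the bacterial adenine methylase Dam, joined to the protein under study, marks GATC sites close to where that protein sits, and Dam alone is the control. Flies carried esg-gal4ts and NREGal80 with one of UAS-Dam, UAS-DamKis, UAS-DamTrr, UAS-DamPolII, UAS-DamBrm, UAS-DamPolycomb, UAS-DamHP1 or UAS-DamH1. They were kept at 18°C and moved to 29°C at 3 days of age for 1 day, and each sample was made from 60 pooled intestines. esg-gal4 acts in ISCs and EBs, and NREGal80 blocks it in cells that respond to Notch, so that the fusions were meant to act in cells with little Notch activity. There were 3 samples of each fusion and 11 Dam-only samples. Kismet is a chromatin remodeler related to CHD7 and CHD8, Trithorax-related (Trr) is a histone methyltransferase of the MLL3/4 family, and Brahma (Brm) is the ATPase of the SWI/SNF remodeler. Polycomb (Pc), Heterochromatin Protein 1 (HP1) and Histone H1 mark kinds of repressed chromatin. The samples of a fusion entered 1 peak call, and the peak lists give positions only. The depth behind a peak is therefore unknown, and no value below has a spread between replicates or a test. The same 3 Dam-only samples were the control of Kismet and of RNA Pol II. A different 3 were the control of HP1, H1 and Brm, of which Pc used 1. Trr had 3 of its own. Values of lists that share Dam-only samples are given side by side only.

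As a check on the labelled cell type, RNA Pol II peaks were looked up in marker genes. They were present in 4 of 4 ISC and progenitor markers (esg, Sox21a, Delta and spdo), and esg and Sox21a lay wholly in them, where 41.5% of all genes had such a peak. They were also present in 3 of 3 genes used as EB markers, with 404 bp of Su(H), 2443 bp of klu and 663 bp of E(spl)mbeta-HLH, although NREGal80 was meant to keep the fusions out of EBs. E(spl)mbeta-HLH is itself one of the members, so it is no outside check. Whether these genes are transcribed only in EBs was not tested. Among enterocyte markers, 2 of 3 had RNA Pol II peaks, with 8314 bp of Myo31DF and 2604 bp of nub, and betaTry had 0 bp. Of 3 enteroendocrine markers only pros had any, with 773 of its 79148 bp, while Tk and AstA had 0 bp. Pc peaks held more of klu (12554 bp), nub (30729 bp) and pros (20038 bp) than RNA Pol II peaks did, and 0 bp of the 4 ISC and progenitor markers. The part of other cell types in the peaks of the complex was not tested.

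Peaks of Kismet, Trr and RNA Pol II were dense over the first part of the complex. Over the last part, Trr and RNA Pol II peaks were sparse, and Kismet peaks covered less than over the first. Of the 10 genes, 7 had at least 1 bp in a Kismet peak, where 23.5% of all genes did. RNA Pol II peaks lay in 6 (41.5% of all genes) and Trr peaks in 5 (20.5%). A Brm peak lay in 1 gene (5.95% of all genes) and a Pc peak in 1 other (5.21%). HP1 and H1 peaks lay in 0 of the 10, where 4.64% and 0.532% of all genes had them. At least 50% of the body lay in Kismet peaks in 6 members (9.47% of all genes), in RNA Pol II peaks in 5 (14.4%) and in Trr peaks in 2 (2.97%), and in Brm or Pc peaks in 0 (0.113% and 2.08%). The members are short, at 676 to 1305 bp, and short genes have fewer chances to meet a peak. They can, however, lie more fully in one. Whole bodies lay in Kismet peaks in 3.91% of all genes and 7.37% of genes no longer than 1305 bp. For RNA Pol II these shares were 6.14% and 11.9%. The share with at least 50% of the body in peaks was not computed for the short genes. Among the 7110 genes no longer than 1305 bp, 13.4% had Kismet peaks, 8.85% Trr peaks, 26.2% RNA Pol II peaks, 1.31% Brm peaks, 3.46% Pc peaks, 2.41% HP1 peaks and 0.113% H1 peaks. The median share of the body in peaks was 78.0% for Kismet, 34.0% for RNA Pol II and 2.90% for Trr over the 10 genes, and 0% for each of these lists over all genes. Members that lie side by side can share a peak, and 1 Kismet peak touched E(spl)mbeta-HLH, E(spl)malpha-BFM, E(spl)m2-BFM and E(spl)m3-HLH, so the genes are not independent. Strands were not given in the annotation used, and before and after refer to lower and higher coordinates on 3R.

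**Figure D1:**
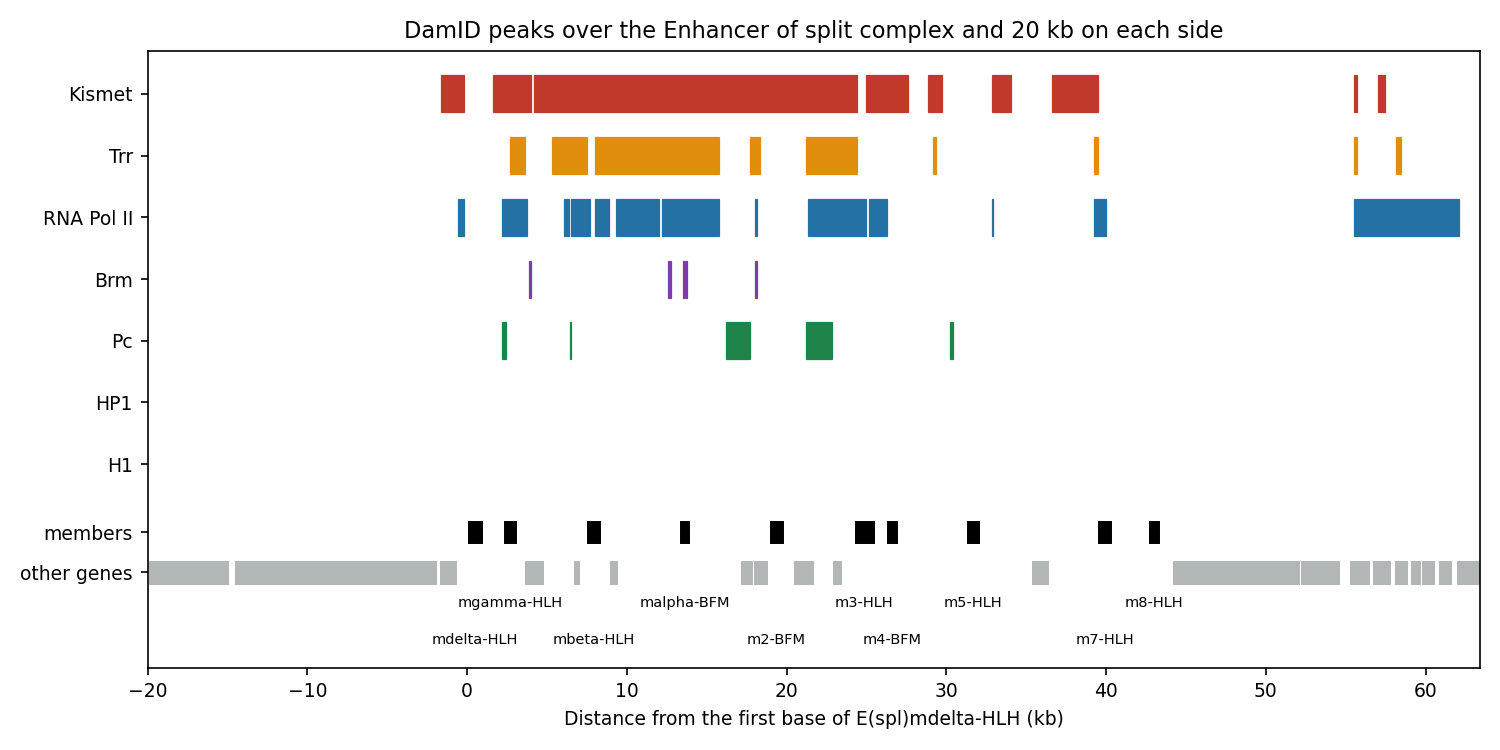
Peaks of the 7 lists (coloured bars, 1 row per list) over the 10 member genes (black) and other annotated genes (grey), against distance in kb from the first base of E(spl)mdelta-HLH. Kismet, Trr and RNA Pol II peaks crowd between E(spl)mgamma-HLH and E(spl)m3-HLH, HP1 and H1 have 0 peaks, and a stretch of 15.5 kb that holds E(spl)m8-HLH has no peak in any list.

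E(spl)malpha-BFM, a Bearded family gene, had peaks of 4 lists, as did E(spl)mgamma-HLH with another set of lists. The gene (FBgn0002732, 3R from 26010893 to 26011568) lay over its full 676 bp in 1 Kismet peak, in 1 Trr peak and in 1 RNA Pol II peak. Of its length, 209 bp, or 30.9%, were a Brm peak that lay wholly inside the gene. It was the only member with a Brm peak and the only one wholly in a Trr peak, a state found in 0.956% of all genes and 2.15% of genes of up to 1305 bp. A second Brm peak, of 184 bp, lay 503 bp before the gene. Pc peaks were 6789 bp before it and 2281 bp after it.

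The other Bearded family members had Kismet peaks over their whole length but few other peaks. In E(spl)m2-BFM (FBgn0002592, 3R from 26016514 to 26017470), all 957 bp lay in a Kismet peak and 0 bp in any of the other lists. Its nearest Trr peaks ended 566 bp before the gene and began 1350 bp after it, and its nearest RNA Pol II peaks were 719 bp before and 1505 bp after. In E(spl)m4-BFM (FBgn0002629, 3R from 26023821 to 26024579), all 759 bp lay in a Kismet peak, 89 bp (11.7%) in an RNA Pol II peak and 0 bp in Trr, Brm or Pc peaks. Thus 3 of 3 Bearded family members were wholly in Kismet peaks, against 2 of 7 HLH genes, where 3.91% of all genes and 7.37% of genes of up to 1305 bp were. With 3 genes of one kind, of which 2 share a Kismet peak, this difference in counts cannot be read as one between the gene families. E(spl)m6-BFM (FBgn0002632, 3R from 26032911 to 26034047), a further Bearded family gene of the complex that is not among the 10, had 0 bp in peaks of every list.

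Of the HLH genes, E(spl)mgamma-HLH and E(spl)mbeta-HLH had the largest shares of their bodies in Kismet and in Trr peaks. E(spl)mgamma-HLH (FBgn0002735, 3R from 25999851 to 26000761) lay with all 911 bp in a Kismet peak and in an RNA Pol II peak. With E(spl)malpha-BFM it was 1 of 2 members wholly in RNA Pol II peaks, where 6.14% of all genes and 11.9% of genes of up to 1305 bp were. A Trr peak covered 424 bp (46.5%) of it and a Pc peak 213 bp (23.4%). It was the only member with a Pc peak. The Pc peak is 231 bp long, starts 18 bp before the gene and covers one end of it, while the Trr peak covers the other end, so that the Pc and Trr peaks did not meet within the gene. E(spl)mbeta-HLH (FBgn0002733, 3R from 26005046 to 26006023) lay with all 978 bp in a Kismet peak, while 2 RNA Pol II peaks covered 663 bp (67.8%) and 2 Trr peaks 498 bp (50.9%). Each of the Trr and RNA Pol II pairs covered the ends of this gene and left its middle free. The nearest Pc peak ended 942 bp before it and the nearest Brm peak lay 3423 bp before it.

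E(spl)m3-HLH and E(spl)m7-HLH were covered in part. E(spl)m3-HLH (FBgn0002609, 3R from 26021823 to 26023127), the longest member, was covered over 730 bp (55.9%) by 2 Kismet peaks, over 1129 bp (86.5%) by a pair of RNA Pol II peaks and over 197 bp (15.1%) by 1 Trr peak. The Kismet and Trr peaks over its lower end both stop at 26022019, and the next Kismet peak begins within the gene at 26022595. E(spl)m7-HLH (FBgn0002633, 3R from 26037038 to 26038019) had 57 bp (5.80%) in a Kismet peak and the same 57 bp in a Trr peak, since both end at 26037094. An RNA Pol II peak covered 553 bp (56.3%) of this gene. Its call for Kismet and Trr thus rests on the last bases of peaks that lie mainly before it.

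The remaining HLH genes had no peak in their bodies. E(spl)mdelta-HLH (FBgn0002734, 3R from 25997621 to 25998633), E(spl)m5-HLH (FBgn0002631, 3R from 26028854 to 26029735) and E(spl)m8-HLH (FBgn0000591, 3R from 26040240 to 26041008) had 0 bp in all 7 lists, as did 48.5% of all genes and 64.2% of genes of up to 1305 bp. They differed in how near a peak was. Before E(spl)mdelta-HLH, a Kismet and an RNA Pol II peak both ended 200 bp away, and the next Kismet peak began 629 bp after it. E(spl)m5-HLH had Kismet peaks 1499 bp before and 719 bp after it, and an RNA Pol II peak of 60 bp began at the same place after it. E(spl)m8-HLH was the most isolated member, with the nearest RNA Pol II peak 2649 bp before it, the nearest Kismet and Trr peaks 3145 bp before it and the next peaks of these lists 12100 bp after it.

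**Figure D2:**
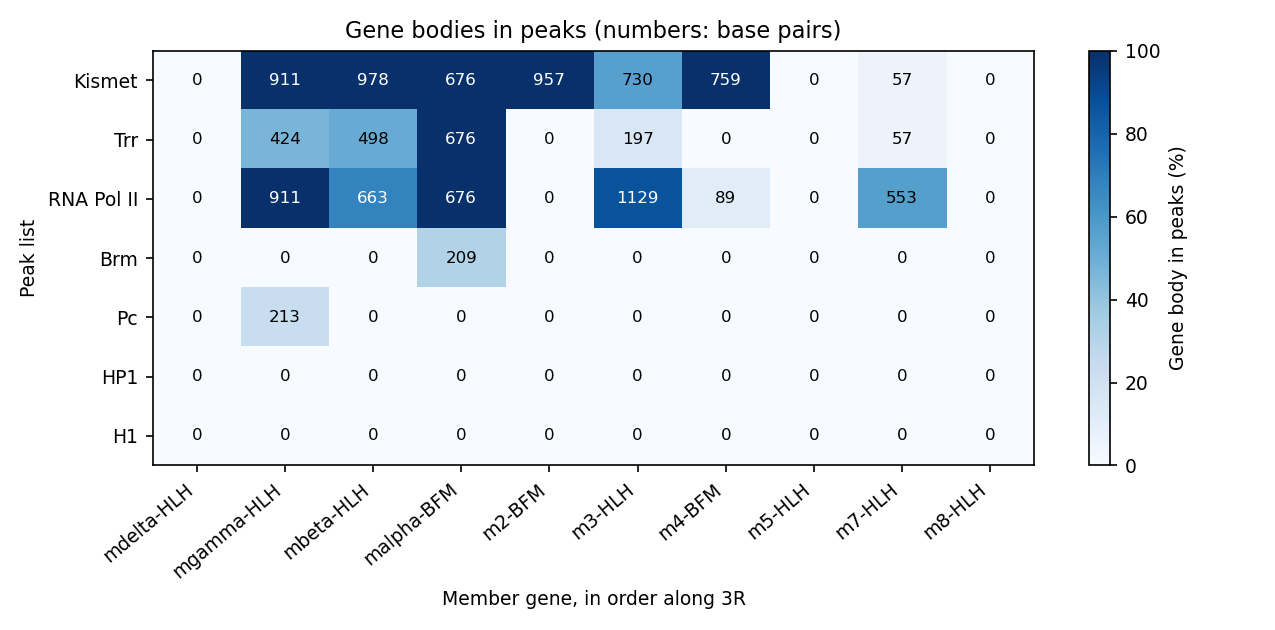
Share of each member's gene body in peaks (colour, in %) with the base pairs printed in each cell, for the 10 members in order along 3R (columns) and the 7 lists (rows). Kismet covers all of 5 genes, Brm and Pc 1 gene each in part, and E(spl)mdelta-HLH, E(spl)m5-HLH and E(spl)m8-HLH are at 0 in every list.

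Kismet and Trr, which share no Dam-only samples, were both present in 5 members, namely E(spl)mgamma-HLH, E(spl)mbeta-HLH, E(spl)malpha-BFM, E(spl)m3-HLH and E(spl)m7-HLH, where 15.3% of all genes and 5.60% of genes of up to 1305 bp had both. The same 5 had Trr with RNA Pol II peaks, where 19.0% of all genes and 7.88% of the short genes did. E(spl)m2-BFM and E(spl)m4-BFM had Kismet without Trr peaks, and 0 members had Trr without Kismet peaks. Over all genes, 2705 of the 3625 with Trr peaks also had Kismet peaks, and among the short genes 398 of 629 did. Of the 4159 genes with Kismet peaks, the same 2705 also had Trr peaks. With 5 members that had Trr peaks, the count of 0 cannot be read as a trait of the members.

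The peaks were not bound to gene bodies. The span from E(spl)mdelta-HLH to E(spl)m8-HLH is 43388 bp long (3R from 25997621 to 26041008), and annotated genes fill 37.5% of it. Kismet peaks covered 69.5% of the span, 6.03 times the 11.5% they covered on arm 3R. Coverage was 36.7% for RNA Pol II against 9.60% of the arm, and 34.7% for Trr against 3.96% of the arm, a ratio of 8.77. For Brm it was 1.52% against 0.399%, and for Pc 8.26% against 4.80%. HP1 peaks cover 9.40% of the arm and H1 peaks 0.0240%, and both had 0 bp in the span and in both flanks. Of the base pairs of Kismet peaks in the span, 35.8% lay in genes, close to the 37.5% of the span that is genic, while 83.4% of all Kismet peak base pairs on the 6 arms lay in genes. For Trr the share in the span was 30.2% against 84.3% on the 6 arms, and for RNA Pol II 36.6% against 85.2%. In the complex, peaks of these proteins thus ran over the spaces between the genes as over the genes. The genic share of the 6 arms was not computed. Kismet peaks covered 14.7% of all summed gene bodies and 12.0% of the 6 arms. For Trr the values were 5.08% and 4.08%, and for RNA Pol II 12.4% and 9.93%. The contrasts with the 6 arms thus cannot be told apart from gene density.

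A single Kismet peak spanned much of the complex. It ran from 26001781 to 26022019 over 20.2 kb and ranked 71 by length among 4562 Kismet peaks on the 6 arms, in the longest 1.56%. Whole within it lay E(spl)mbeta-HLH, E(spl)malpha-BFM and E(spl)m2-BFM, with Kaz-m1 and 5 lncRNA genes, and it reached into E(spl)m3-HLH and lncRNA:CR45037. The longest Trr peak in the complex ran from 26005623 to 26013363 over 7.74 kb, from within E(spl)mbeta-HLH to beyond E(spl)malpha-BFM. It ranked 37 among 4840 Trr peaks, in the longest 0.764%. The longest RNA Pol II peak of the span measured 3.62 kb and reached from lncRNA:CR43643 into E(spl)m3-HLH, rank 908 of 6820, so RNA Pol II peaks here were not among the longest of their list. The Brm peaks were all shorter than their list's median of 259 bp, at 96, 172, 184 and 209 bp.

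**Figure D3:**
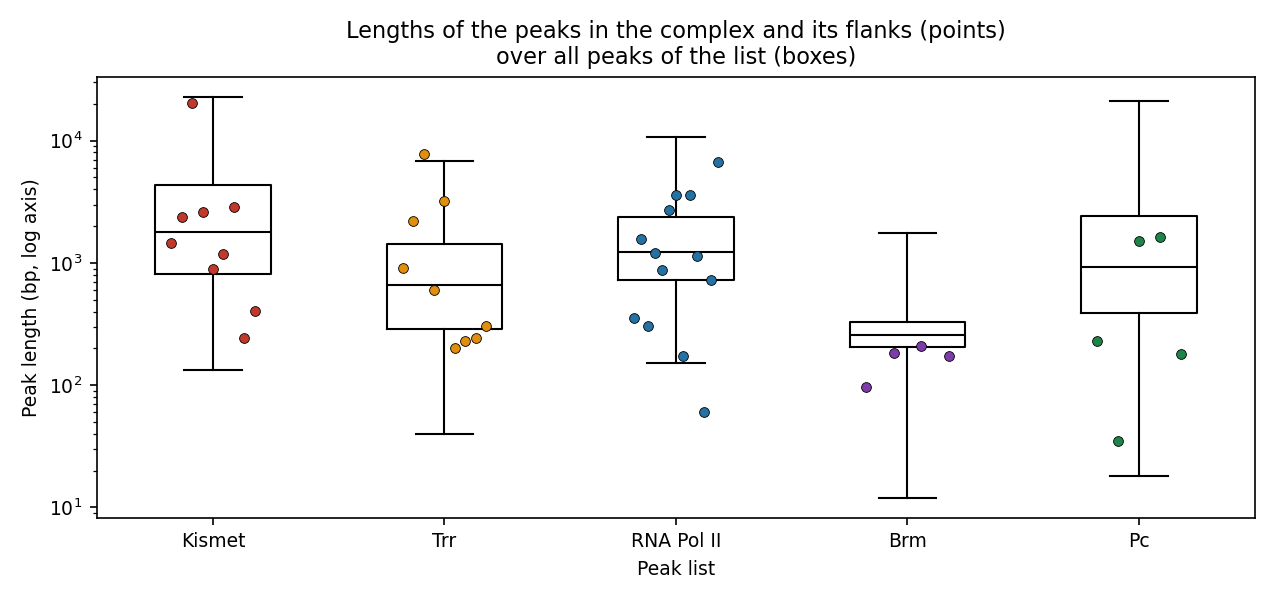
Lengths in bp (log axis) of the peaks in the complex with 20 kb on each side (points) for the 5 lists that have any, over all peaks of each list on the 6 arms (box: quartiles and median; whiskers: 1st to 99th percentile). The 20.2 kb Kismet peak is in the longest 1.56% of its list and the 7.74 kb Trr peak in the longest 0.764%. The 4 Brm peaks lie below their list's median.

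The span divided at E(spl)m3-HLH, a place chosen after the peaks were seen. In the 25507 bp from E(spl)mdelta-HLH to the end of E(spl)m3-HLH, Kismet peaks covered 90.7%, Trr peaks 57.4%, RNA Pol II peaks 56.2%, Pc peaks 13.3% and Brm peaks 2.59%. In the 17881 bp from there to the end of E(spl)m8-HLH, the values were 39.4% for Kismet, 2.39% for Trr, 8.76% for RNA Pol II, 1.01% for Pc and 0% for Brm. Kismet in the latter stretch was still 3.42 times its coverage of arm 3R, while Trr (0.604 times) and RNA Pol II (0.912 times) were below theirs. This Kismet coverage lay mainly between genes. The peaks from 26026465 to 26027354, between E(spl)m4-BFM and E(spl)m5-HLH, and from 26030455 to 26031641, between E(spl)m5-HLH and E(spl)m6-BFM, touched 0 genes, and that from 26034205 to 26037094 touched only E(spl)m7-HLH, over its lowest 57 bp. The first of the 3 holds a Trr peak of 200 bp, and the last a Trr peak of 228 bp at its end.

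**Figure D4:**
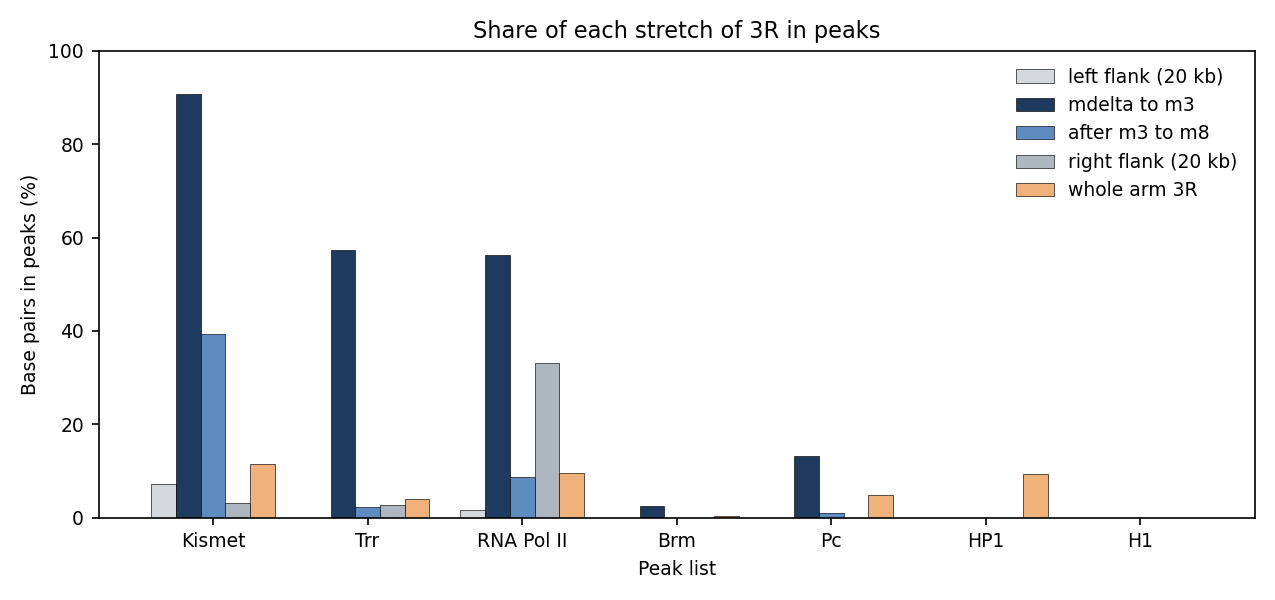
Share of base pairs in peaks (%) for each list in the left flank of 20 kb, in both parts of the complex, in the right flank of 20 kb and on the whole arm 3R. From E(spl)mdelta-HLH to E(spl)m3-HLH, Kismet covers 90.7%, Trr 57.4% and RNA Pol II 56.2%, and the flanks fall below the arm for every list except RNA Pol II in the right flank (33.1%).

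Pc and Brm peaks covered little of the members, with 213 bp of E(spl)mgamma-HLH and 209 bp of E(spl)malpha-BFM. The Pc list held 5 peaks in the span, of 35 to 1631 bp, and the larger of these, 1.51 kb and 1.63 kb long, exceeded the list's median of 919 bp. One ran from 26013850 to 26015356 into Kaz-m1, a gene for a Kazal-type protease inhibitor that lies in the complex, and the other from 26018821 to 26020451 over part of lncRNA:CR43643, between E(spl)m2-BFM and E(spl)m3-HLH. Of the Pc base pairs, 95.0% lay in Kismet peaks, against 8.58% over the 6 arms, and they made up 10.5% of the Kismet base pairs, against 2.79%. With Trr, 46.6% of the Pc base pairs were shared, against 1.60% over the 6 arms, and they were 10.7% of the Trr base pairs. With RNA Pol II, 47.7% were shared, against 2.89%. Most of both shares came from the Pc peak of 1.63 kb. It held 1631 of the 1670 bp shared with Trr and 1476 of the 1711 bp shared with RNA Pol II. Pc lies here within a region that Kismet peaks fill almost whole, so its share in Kismet peaks cannot be told apart from the length of those peaks. Of the 3584 Pc base pairs, 3404 lay from E(spl)mdelta-HLH to E(spl)m3-HLH, where Trr peaks covered 57.4% and RNA Pol II peaks 56.2% of the bases. The Pc shares of 46.6% and 47.7% were not above this local coverage. All 4 Brm peaks, or 100% of their base pairs, lay in Kismet peaks, against 84.8% over the 6 arms, and 85.5% in Trr peaks, against 64.7%. The same limit holds for the share of Brm in Kismet peaks. All 4 Brm peaks also lay in the stretch where Trr peaks covered 57.4% of the bases, so their share in Trr peaks has a like limit. One Brm peak, in Kaz-m1 and lncRNA:CR45040, runs from 26015623 to 26015794, the same bases as an RNA Pol II peak and inside a Trr peak.

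Of the base pairs of Trr peaks in the complex and its flanks, 98.0% lay in Kismet peaks (87.0% over the 6 arms), and these were 47.5% of the Kismet base pairs (29.5% over the 6 arms). Most Trr base pairs (14646 of 15622) lay from E(spl)mdelta-HLH to E(spl)m3-HLH, where Kismet peaks covered 90.7% of the bases. The share of Trr in Kismet peaks thus cannot be told apart from the length of those peaks. Counted as peaks, 8 of 9 Trr peaks touched a Kismet peak and 5 of 9 Kismet peaks touched a Trr peak. The Trr peak without Kismet lay in Sld5, in the right flank. RNA Pol II peaks held 85.6% of the Trr base pairs (82.0% over the 6 arms), and the shared bases were 58.4% of the RNA Pol II base pairs (33.7% over the 6 arms).

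Few peaks lay in the flanks next to the complex. In the left flank, genes, Nf1 and CG43116 among them, fill 94.8% of the bases. There a Kismet peak of 1444 bp and an RNA Pol II peak of 353 bp lay close to E(spl)mdelta-HLH, and the other lists had 0 peaks. The nearest Trr peak on this side was 235 kb from the complex, the nearest Brm peak 237 kb and the nearest Pc peak 258 kb. On the other side, no list had a peak from 26037591 to 26053108, a stretch of 15.5 kb that holds E(spl)m8-HLH, gro and Exo84. The gene gro (FBgn0001139, 3R from 26041736 to 26049911), which encodes Groucho, thus had 0 of 8176 bp in peaks of any list. Beyond it, an RNA Pol II peak of 6.63 kb ran over 8 genes from Vps2 to Trmt61, with 2 Kismet and 2 Trr peaks of 243 to 408 bp in Vps2, Cmpk and Sld5. RNA Pol II peaks covered 33.1% of the right flank and Kismet peaks 3.25%.

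Peaks begin and end at GATC sites, so the spacing of these sites limits what can be said of a short gene. Known sites here are the edges of all peaks of the 7 lists, so sites that are an edge in no list are missing from them. In E(spl)mdelta-HLH, E(spl)m2-BFM, E(spl)m5-HLH and E(spl)m8-HLH, 0 known sites lay inside the gene. The body of E(spl)m2-BFM, wholly within a Kismet peak, lay between known sites 2877 bp apart, the widest spacing among the 27 known sites of that peak, where the median was 440 bp. E(spl)mdelta-HLH, with 0 bp in peaks, lay between known sites that enclose 1850 bp. A gene in no peak has 0 known sites by this definition, so the 0 of E(spl)mdelta-HLH, E(spl)m5-HLH and E(spl)m8-HLH was fixed in advance. Likewise, the 1850 bp around E(spl)mdelta-HLH is set by the nearest peaks. Whether GATC sites lie inside these genes or inside E(spl)m2-BFM, and were measured, cannot be told from the lists. Counting a gene only where at least 2 known sites lie inside the part of a peak within the gene left 4 members with Kismet (without E(spl)m2-BFM, E(spl)m4-BFM and E(spl)m7-HLH), 5 with RNA Pol II and 1, E(spl)malpha-BFM, with Trr peaks. The share of all genes under this rule was not computed, so these counts show only how the member calls shift.

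Other genes of the Notch pathway also had peaks. Of 20 core genes, 10 had Kismet peaks (23.5% of all genes), 8 Trr peaks (20.5%), 16 RNA Pol II peaks (41.5%), 5 Brm peaks (5.95%), 1 a Pc peak (5.21%) and 2 HP1 peaks (4.64%). None of the 20 lay wholly in peaks of any list, where 3.91% of all genes did so for Kismet, 0.956% for Trr and 6.14% for RNA Pol II. With 20 genes, a count of 0 is near these shares. The median share of the body in peaks was 6.10% for Kismet, 19.3% for RNA Pol II and 0% for Trr. The core genes were not matched in length to the members or to all genes. Long ones, such as kuz at 89273 bp, can meet a peak more easily and lie wholly in one less easily. N, the receptor, had 13211 of 37352 bp in Kismet peaks and 4784 bp in Trr peaks. mam, which encodes a co-activator of Notch, had 46276 of 69154 bp in 1 Kismet peak. neur, the gene of Neuralized, had 14593 of 19124 bp in Kismet peaks. Su(H) had 404 of 3847 bp in an RNA Pol II peak and 0 bp in Kismet and Trr peaks. Delta had 6000 of 23487 bp in Kismet peaks and 0 bp in Trr peaks, while Ser, the other Notch ligand, had 0 bp in any list. H, which encodes the Su(H) co-repressor Hairless, and Psn, a subunit of the protease that cuts Notch, also had 0 bp.

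Relatives of the members outside the complex were looked up in the same way, where 48.5% of all genes and 64.2% of genes of up to 1305 bp had no peak in any list. Of 4 Bearded family genes on 3L that were found, 3 (Brd, Tom and BobA) had 0 bp in every list, and Ocho had 137 of 1193 bp in a Kismet peak and in a Brm peak. Of 5 HLH repressor genes related to the hairy gene, dpn, Hey and Hesr had 0 bp in every list. The hairy gene itself, hry, is 3495 bp long, of which Kismet peaks held 1375 bp, RNA Pol II peaks 1347 bp, a Pc peak 879 bp and a Trr peak 136 bp. In cwo, of 12495 bp, a Kismet peak held 8688 bp, RNA Pol II peaks 8486 bp and Trr peaks 5076 bp.

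**Figure D5:**
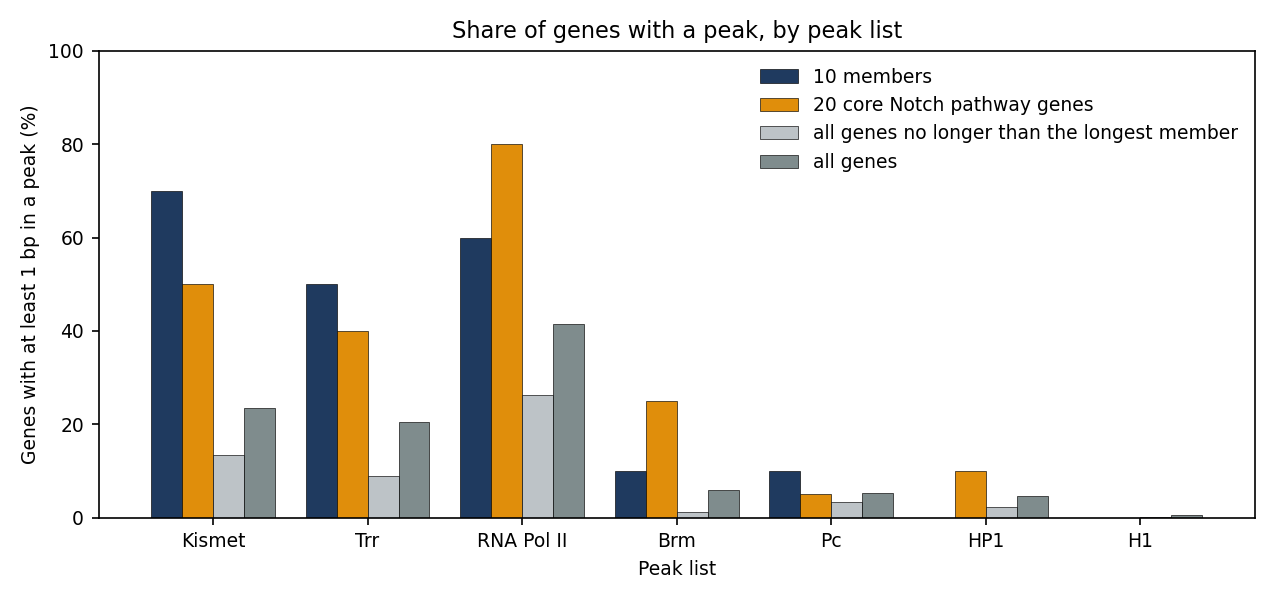
Percent of genes with at least 1 bp in a peak, by list, for the 10 members, 20 core Notch pathway genes, all 7110 genes of up to 1305 bp and all 17684 genes. The members stand at 7 of 10 for Kismet, 5 for Trr and 6 for RNA Pol II, and the core Notch genes at 10, 8 and 16 of 20.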

How the data were processed

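Targeted DamID samples (32 in all) were used, and 10 RNA-seq samples of kis, trr and white RNAi were not analysed here. According to the methods of the study, the authors aligned reads to release 6 with bowtie2 in damidseq_pipeline, extended them to 300 nucleotides or the first GATC, counted them per GATC site with bedtools, removed sites whose mean count was under 5, compared fusion and Dam-only samples with DESeq2 and merged 2 or more consecutive sites with an adjusted p-value under 0.01 and a log2 fold change above 0. The 7 deposited lists hold arm, start and end of each peak, with no count, fold, score or p-value. Versions are not given in the sources used here. Where a genotype entry of an HP1 or H1 sample disagreed with the title in its number, the title was followed.

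Starts were read as 0-based. An end lay exactly 4 bp after a start 1005 times among 19004 distinct starts, 0 times at 1, 2, 3, 5 or 6 bp and at most 12 times at any offset from -6 to 0 bp, so that peaks run from the first base of one GATC to the last base of another. Gene bodies came from the RefSeq table, which has no strand, exons or sequence, so gene starts, promoters, motifs and proteins were not analysed here. The arm length was taken as its last annotated gene or peak. The 10 members were named in the text, with all genes of the region and lists of Notch, Bearded, hairy-related and marker genes. Members and lists were chosen with earlier results of these data known. Of the listed symbols, BobB, BobC and Side were not found, Dl, h and nct were matched to Delta, hry and Nct, Her and Hesr are 1 gene, and the gene side (sidestep), of another family, was left out. Overlaps were tested on simulated data: 1000 simulated intervals counted base by base differed in 0 cases. Python 3.11.15, NumPy 2.4.6 and matplotlib 3.10.9 were used.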

Additional observations from a re-analysis of the deposited data

How the results depend on the processing

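No paired analysis was possible because the peak lists pool the replicates of a fusion, and for the same reason no replicate could be left out. A promoter window could not be tried without strands. Of the other rules for members below, only that of 50% of the body has a share of all genes given above. Member counts under the rest show only how the calls shift. Asking for at least 50% of the body left 2 members with Trr, 0 with Brm and 0 with Pc peaks. Asking for 2 known GATC positions left 4 members with Kismet, 1 with Trr and 0 with Pc peaks. Extending the bodies by 1 kb gave 3 members with Brm and 3 with Pc peaks, and brought E(spl)mdelta-HLH and E(spl)m5-HLH to Kismet and RNA Pol II. With only peaks of at least the median length of their list, 3 members had RNA Pol II, 0 Brm and 0 Pc peaks, and the region held 4 Kismet, 4 Trr, 5 RNA Pol II, 2 Pc and 0 Brm peaks (0 bp for Brm). Counts of members with Kismet peaks were 6 at 50% of the body, 9 with 1 kb added and 7 with long peaks. E(spl)m8-HLH still had 0 peaks with 1 kb added, the only rule of these 4 that could have given it any. Among the recomputed values for the members and the complex, 17 changed by more than 1.5 times. The other 61 stayed within it, the Kismet counts of 6, 9 and 7 and all HP1 and H1 values of 0 among them. These 61 include all counts and base pairs with flanks of 10 kb or none. They also include all counts of touching peaks when 50% of the shorter peak had to be shared. HP1 and H1 values were 0 throughout, and rules that only narrow the call could not have raised them. The unknown depth limits every absence: a gene outside all lists was not called, which does not show that it was unbound.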
